A study of Mus musculus with 12 samples.

Results

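The distal nephron sodium transport genes are 10 mouse genes taken as a list of names, with no measured value in the rule. They are the cotransporter genes Slc12a1 and Slc12a3, the uromodulin gene Umod, the sodium channel subunit genes Scnn1a, Scnn1b and Scnn1g, the kinase genes Wnk1 and Wnk4, the mineralocorticoid receptor gene Nr3c2 and the steroid enzyme gene Hsd11b2. All 10 were found among 24532 gene identifiers in the deposited tables, through their Entrez Gene identifiers, and all 10 passed the filter on low values that left 14488 genes for testing. Their levels were read in 12 total RNA libraries from kidneys of mice that were fasted overnight, in 4 groups of 3. FXR KO mice, labelled with the strain Nr1h4tm1Gonz/J, carry a disrupted Nr1h4, the gene of the bile acid receptor FXR, and were given GW4064, a synthetic FXR agonist, for 6 h, or vehicle. WT mice, labelled C57BL/6, were given GW4064 for 6 h or vehicle. The allele is present in every cell of the animal, so no cell type is singled out by it. Sex, age, dose and vehicle are not given in the labels used here, and neither is whether WT and FXR KO mice were littermates. Nothing in the labels states that each library is another animal, and the p-values below therefore speak for the spread among these libraries, which may be technical.

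The distal nephron is where the kidney sets the final sodium content of urine. In the thick ascending limb, sodium enters with potassium and chloride through NKCC2, the product of Slc12a1 and the target of loop diuretics. In the distal convoluted tubule it enters with chloride through NCC, the product of Slc12a3 and the target of thiazides. In the connecting tubule and collecting duct it enters through the epithelial sodium channel ENaC, built from the products of Scnn1a, Scnn1b and Scnn1g. WNK kinases act on the cotransporters through the kinases SPAK and OSR1. Aldosterone acts on the last segments through the mineralocorticoid receptor, and the Hsd11b2 enzyme keeps that receptor free for aldosterone by inactivating glucocorticoid.

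The genes lie on chromosomes 2, 6, 7, 8 and 11 of mm10, all annotated as protein-coding. Slc12a1 (Entrez Gene 20495) spans 125152600 to 125230001 on chromosome 2, and Slc12a3 (20497) spans 94329208 to 94366221 on chromosome 8. Umod (22242) runs from 119462708 to 119479262 on the minus strand of chromosome 7. Scnn1g (20278, 121734479 to 121768482) and Scnn1b (20277, 121865038 to 121918728) follow on the plus strand of the same chromosome, 96555 bases apart, with 0 listed genes wholly between them. Scnn1a (20276, 125321340 to 125344942) and Wnk1 (232341, 119923969 to 120038655) are on chromosome 6. Wnk4 (69847) lies at 101260567 to 101277409 on chromosome 11. Nr3c2 (110784, 76902508 to 77243639) and Hsd11b2 (15484, 105518746 to 105523988) are on chromosome 8. In these tables Wnk1 overlaps Mir706 over 84 bases on the same strand, and no other member overlaps a listed gene.

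RefSeq promoter windows (GRCm38.p6, 250 bases before to 50 after a gene's start) were at hand for 8 of the members. Of these, 3 are shown. Nr3c2 is shown because its level separated the genotypes, and Umod and Scnn1b because they held the only matches to the motifs searched. Capitals mark those matches, and each sequence is written 5′ to 3′ on the gene's own strand.
Nr3c2, chr8:76902080-76902379, plus strand: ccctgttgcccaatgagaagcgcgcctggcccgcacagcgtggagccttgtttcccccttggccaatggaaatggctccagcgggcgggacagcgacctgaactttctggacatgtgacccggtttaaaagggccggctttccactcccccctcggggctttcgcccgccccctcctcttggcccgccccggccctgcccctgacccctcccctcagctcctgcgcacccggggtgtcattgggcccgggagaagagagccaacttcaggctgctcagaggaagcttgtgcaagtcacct
Umod, chr7:119479213-119479512, minus strand: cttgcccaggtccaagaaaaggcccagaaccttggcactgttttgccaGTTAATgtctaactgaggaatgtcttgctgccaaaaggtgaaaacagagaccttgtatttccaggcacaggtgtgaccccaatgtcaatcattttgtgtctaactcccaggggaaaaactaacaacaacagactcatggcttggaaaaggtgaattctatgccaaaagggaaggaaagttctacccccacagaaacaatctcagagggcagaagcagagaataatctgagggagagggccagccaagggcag
Scnn1b, chr7:121864788-121865087, plus strand: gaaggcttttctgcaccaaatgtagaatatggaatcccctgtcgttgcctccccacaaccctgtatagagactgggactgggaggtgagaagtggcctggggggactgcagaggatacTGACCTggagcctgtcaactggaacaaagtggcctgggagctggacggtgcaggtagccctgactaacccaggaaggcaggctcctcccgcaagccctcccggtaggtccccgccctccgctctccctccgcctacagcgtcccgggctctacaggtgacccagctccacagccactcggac

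Motifs were searched on both strands. The core repeat of nuclear receptors, AGGTCA, was matched in 1 of 8 windows (Scnn1b, by its reverse complement) and in 16.3% of 32851 windows over all genes. The core repeat of steroid receptors, AGAACA, was matched in 0 of 8 windows and in 19.0% of all windows. The HNF1 core GTTAAT was matched in 1 of 8 (Umod) and in 7.10% of all. The inverted repeat bound by FXR (the first core repeat, 1 base, then its reverse complement) and the steroid receptor palindrome (the second core repeat, 3 bases, then its reverse complement) contain these core repeats, and each was matched in 0 of 8 windows and in 0.00913% of all. A match is a stretch of letters and not a shown binding site, and no match speaks only for these 300 bases. The window of Nr3c2 belongs to a RefSeq start upstream of the start in the deposited tables.

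From the deposited coverage and FPKM, 2.86 to 4.27 gigabases were mapped in a library. FXR KO vehicle libraries had 3.46 to 4.27 and WT vehicle libraries 2.86 to 3.34, with no overlap, and the part of depth in that comparison was not tested. In each library 16693 to 17186 genes had a value above 0. Nr1h4 was at 105 to 134 TPM in the 6 FXR KO libraries and 189 to 267 TPM in the 6 WT libraries, so every FXR KO library was below every WT library. A whole-gene value does not tell intact from truncated transcripts. Pairs of libraries of the same group correlated at 0.982 to 0.988 (Pearson's r of log2 values over genes), and pairs of different groups at 0.970 to 0.987. The adrenal cortex, which makes aldosterone, was hardly represented, with Cyp11b1 and Cyp11b2 listed at 0 in all 12 libraries. The least covered member, Nr3c2, had a mean read depth of 26.2 to 40.0 per base, and the most covered, Umod, of 4123 to 6239.

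Levels in TPM, which are scaled by gene length and can be set side by side, spanned a wide range between members and a narrow one between libraries. Umod averaged 3564 ± 158 TPM over the 12 libraries, Slc12a1 1299 ± 59.2, Slc12a3 573 ± 41.7 and Wnk1 220.3 ± 9.58 TPM (SD, n = 12). Wnk4 followed at 64.5 ± 7.03 TPM, Hsd11b2 at 59.9 ± 5.54, Scnn1b at 48.4 ± 3.61, Scnn1g at 42.1 ± 2.95, Scnn1a at 40.4 ± 3.82 and Nr3c2 at 24.0 ± 2.43 TPM (SD, n = 12). The order was the same in all 12 libraries except for 3 pairs of genes. Wnk4 exceeded Hsd11b2 in 8 of 12 libraries and Scnn1g exceeded Scnn1a in 7 of 12, and these orders partly followed the groups. Hsd11b2 was above Wnk4 in all WT GW4064 libraries (61.1 to 62.1 against 55.1 to 56.8 TPM). It was below Wnk4 in all WT vehicle libraries (58.6 to 66.5 against 68.4 to 72.1 TPM). Scnn1g was above Scnn1a in all WT GW4064 libraries (40.2 to 41.4 against 34.3 to 38.2 TPM), with a mixed order in the other groups. Differences between these genes were not tested. Scnn1a exceeded Scnn1b in 1 of 12, FXR KO vehicle replicate 2. The highest library was 1.14 times (Wnk1) to 1.37 times (Hsd11b2) the lowest, with a median of 1.28 over the members on the log2(TPM + 0.5) scale. All tested genes had a median of 1.41 for this ratio, and the 7132 genes averaging at least 20 TPM had a median of 1.27. The members' median was thus close to that of genes averaging at least 20 TPM, a set with a floor but not matched to each member's level.

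**Figure D1:**
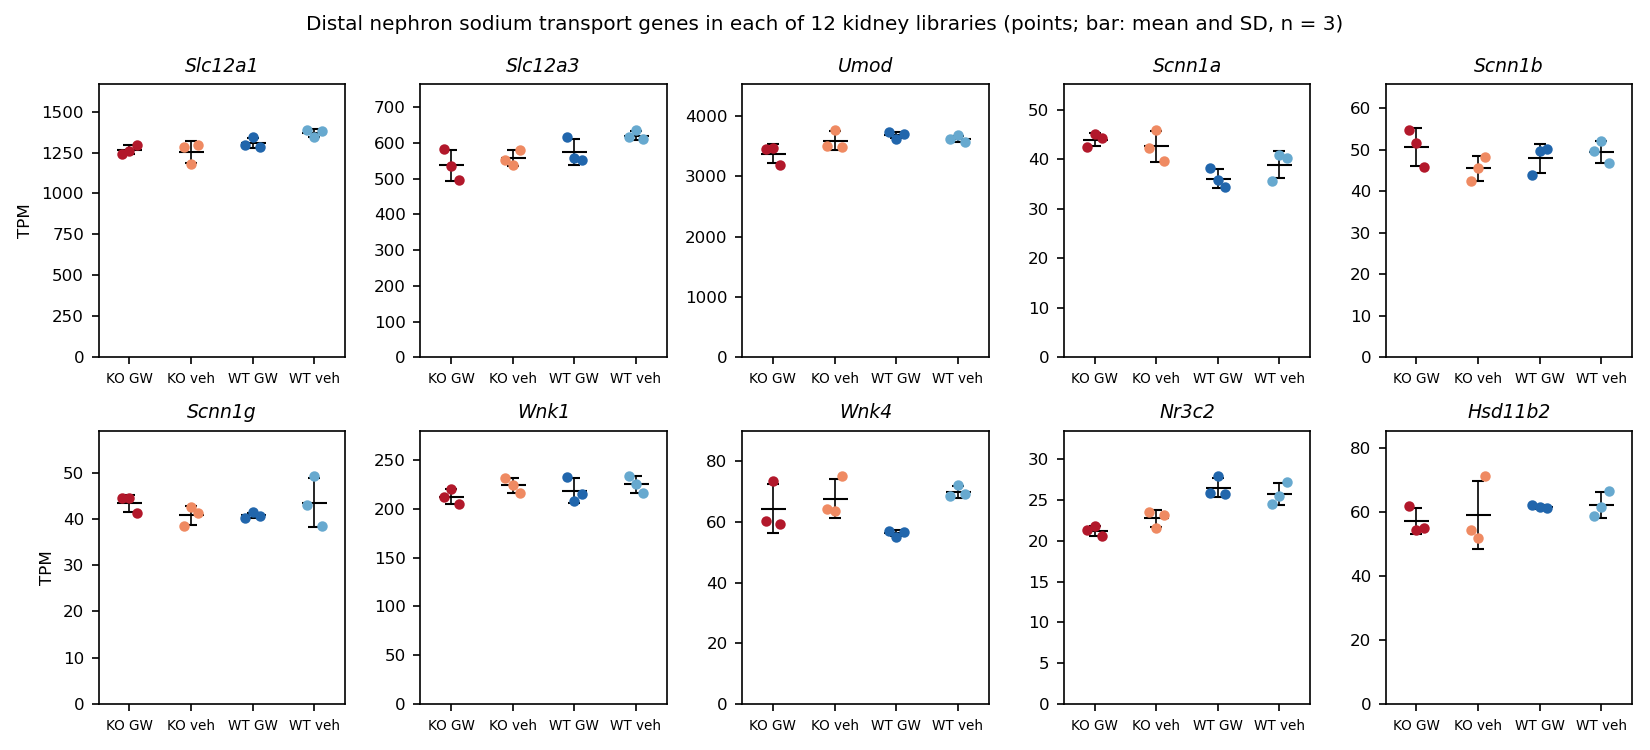
TPM of the 10 genes in each library, with groups from left to right FXR KO GW4064, FXR KO vehicle, WT GW4064 and WT vehicle. Points are libraries and the bar is the mean with its SD (n = 3); the axes start at 0, and the 6 FXR KO points of Nr3c2 (20.6 to 23.5 TPM) lie under its 6 WT points (24.5 to 27.9 TPM).

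Among the cotransporters, Slc12a1 measured 1241, 1262 and 1297 TPM in FXR KO GW4064 libraries, 1285, 1178 and 1295 in FXR KO vehicle, 1297, 1342 and 1283 in WT GW4064 and 1387, 1343 and 1383 in WT vehicle libraries. The 3 WT vehicle libraries were the highest of the 12. Slc12a3 measured 582, 534 and 496 TPM in FXR KO GW4064, 553, 537 and 581 in FXR KO vehicle, 617, 557 and 551 in WT GW4064 and 616, 636 and 609.6 in WT vehicle libraries. On vehicle every FXR KO library was below every WT library for both genes, and under GW4064 the genotypes overlapped for both.

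Umod encodes uromodulin, the most abundant protein of normal urine and a marker of the thick ascending limb. It measured 3458, 3464 and 3187 TPM in FXR KO GW4064, 3504, 3766 and 3491 in FXR KO vehicle, 3725, 3621 and 3699 in WT GW4064 and 3609.9, 3676 and 3566 in WT vehicle libraries. Here the 3 FXR KO GW4064 libraries were the lowest, and the highest library was also from FXR KO, on vehicle. Within a library Umod stood at 2.46 to 3.20 times Slc12a1 in FXR KO and at 2.58 to 2.88 times in WT, so the ranges of the ratio overlapped.

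Of the channel subunits, Scnn1a, whose alpha subunit is needed for the channel to conduct, measured 42.5, 45.0 and 44.2 TPM in FXR KO GW4064, 42.3, 45.9 and 39.6 in FXR KO vehicle, 38.2, 35.7 and 34.3 in WT GW4064 and 35.7, 40.9 and 40.2 in WT vehicle libraries. Under GW4064 every FXR KO library was above every WT library, while on vehicle the genotypes overlapped. Scnn1b measured 54.7, 51.6 and 45.7 TPM in FXR KO GW4064, 42.4, 45.7 and 48.3 in FXR KO vehicle, 43.9, 49.8 and 50.03 in WT GW4064 and 49.6, 52.1 and 46.7 in WT vehicle libraries. Scnn1g measured 44.4, 44.5 and 41.2 TPM in FXR KO GW4064, 38.5, 42.7 and 41.2 in FXR KO vehicle, 40.2, 41.4 and 40.7 in WT GW4064 and 43.0, 49.2 and 38.5 in WT vehicle libraries. Groups overlapped in every comparison for Scnn1b and for Scnn1g. Summed over the 3 subunits, the channel stood at 123 to 142 TPM in FXR KO and 122 to 142 TPM in WT libraries. The alpha subunit made up 30.0% to 34.3% of that sum in FXR KO and 27.4% to 32.1% in WT libraries, ranges that overlapped.

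The kinase genes differed in how far they varied. Wnk1 measured 212, 221 and 205 TPM in FXR KO GW4064, 232, 224 and 217 in FXR KO vehicle, 233, 209 and 215 in WT GW4064 and 233, 226 and 216 in WT vehicle libraries, with all groups overlapping. Its gene value adds the full-length kinase and the shorter kidney-specific form, which these tables do not separate. Wnk4 measured 60.2, 73.6 and 59.2 TPM in FXR KO GW4064, 64.2, 63.7 and 75.0 in FXR KO vehicle, 56.8, 55.1 and 56.8 in WT GW4064 and 68.4, 72.1 and 69.3 in WT vehicle libraries. The 3 WT GW4064 libraries were the lowest of the 12 and lay close together. Wnk1 was 3.78 to 4.10 times Wnk4 in WT GW4064 libraries and 3.12 to 3.41 times in WT vehicle libraries, against 2.998 to 3.53 in FXR KO GW4064 and 2.89 to 3.61 in FXR KO vehicle libraries.

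For the aldosterone arm, Nr3c2 measured 21.3, 21.8 and 20.6 TPM in FXR KO GW4064, 23.5, 21.6 and 23.1 in FXR KO vehicle, 25.9, 27.9 and 25.8 in WT GW4064 and 24.5, 25.4 and 27.2 in WT vehicle libraries. It was the only member with all 6 FXR KO libraries on the same side of all 6 WT libraries. Of all tested genes, 10.7% had genotypes that did not overlap in this way, so 1 of 10 members is near that share. Hsd11b2 measured 61.7, 54.4 and 55.0 TPM in FXR KO GW4064, 54.2, 51.7 and 71.0 in FXR KO vehicle, 62.1, 61.4 and 61.1 in WT GW4064 and 58.6, 61.5 and 66.5 in WT vehicle libraries. Its groups overlapped throughout, and both its highest and its lowest library were FXR KO on vehicle.

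The first comparison asked what the agonist does where its receptor gene is intact. None of the 10 members was called (limma, Benjamini-Hochberg adjusted p under 0.05 over 14488 genes), where 4.80% of all tested genes were (2.48% higher, 2.32% lower), and 1 member had an unadjusted p under 0.05. That member was Wnk4, at 56.3 ± 0.970 TPM in WT GW4064 and 70.0 ± 1.93 TPM in WT vehicle libraries (SD, n = 3 each). Its log2 difference was -0.31 ± 0.08 (SE), with adjusted p = 0.0544 (limma), just beyond the threshold. It passed with a filter of 5 TPM (adjusted p = 0.0462), with quantile scaling (0.0458), with a fit of the 6 WT libraries alone (0.0058), without FXR KO GW4064 replicate 2 (0.0139) and without FXR KO vehicle replicate 3 (0.0360), the libraries in which Wnk4 was highest within their groups. The other 9 members had log2 differences of -0.11 (Slc12a3) to 0.04 (Nr3c2). Their 95% intervals placed the fold of GW4064 over vehicle between 0.837 (Scnn1a) and 1.15 (Hsd11b2). The median over the members was -0.06, and over all genes -0.03. Libraries with and without GW4064 did not overlap for 2 of 10 members (Slc12a1 and Wnk4), against 26.8% of all genes. Markers of cell types were read in the same comparison. Principal cell markers summed to 461 to 522 TPM in WT GW4064 and 594 to 636 TPM in WT vehicle libraries, and 0 of 10 rose and 1 fell, with a list median of -0.29. Immune markers (5 tested) had 1 that rose. Those of fat, urothelium and blood gave 0 calls, with medians of -1.03, -0.73 and -0.64, as did podocyte (-0.17), endothelial (-0.05), intercalated cell (-0.03) and proximal tubule (0.02) markers. The summed blood markers overlapped, at 840 to 1295 TPM in WT GW4064 and 1148 to 2840 TPM in WT vehicle libraries. Single WT GW4064 libraries differed widely for fat, with Cfd at 0.711, 25.3 and 3.31 TPM. The part of the marker differences in the value of Wnk4 was not tested.

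The same comparison in FXR KO mice gave 0 called members by limma, and 0 with an unadjusted p under 0.05, where 0.0138% of all genes were called (0.00690% higher, 0.00690% lower). Scnn1b had the largest difference, at 50.7 ± 4.57 TPM in FXR KO GW4064 and 45.5 ± 2.93 TPM in FXR KO vehicle libraries (SD, n = 3 each), a log2 difference of 0.15 ± 0.08 (SE, adjusted p = 0.528, limma). For Wnk4 the log2 difference was -0.07 ± 0.08. Intervals of the 10 members ran from a fold of 0.837 (Hsd11b2) to 1.25 (Scnn1b). The median over members was -0.04, and over all genes 0.02. Libraries did not overlap for 1 of 10 members (Umod), against 13.9% of all genes.

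Whether the agonist acted differently in the genotypes was tested as the difference of these differences, FXR KO minus WT. No member was called (limma, 0 also at an unadjusted p under 0.05), where 3.19% of all genes were (1.47% higher, 1.72% lower). Wnk4 had the largest value, 0.24 ± 0.12 (SE, adjusted p = 0.295, limma), with a 95% interval of -0.02 to 0.49. The 3 channel subunits had 0.15 ± 0.10 (Scnn1a), 0.20 ± 0.11 (Scnn1b) and 0.17 ± 0.11 (Scnn1g), with adjusted p of 0.357 to 0.431 (limma).

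**Figure D2:**
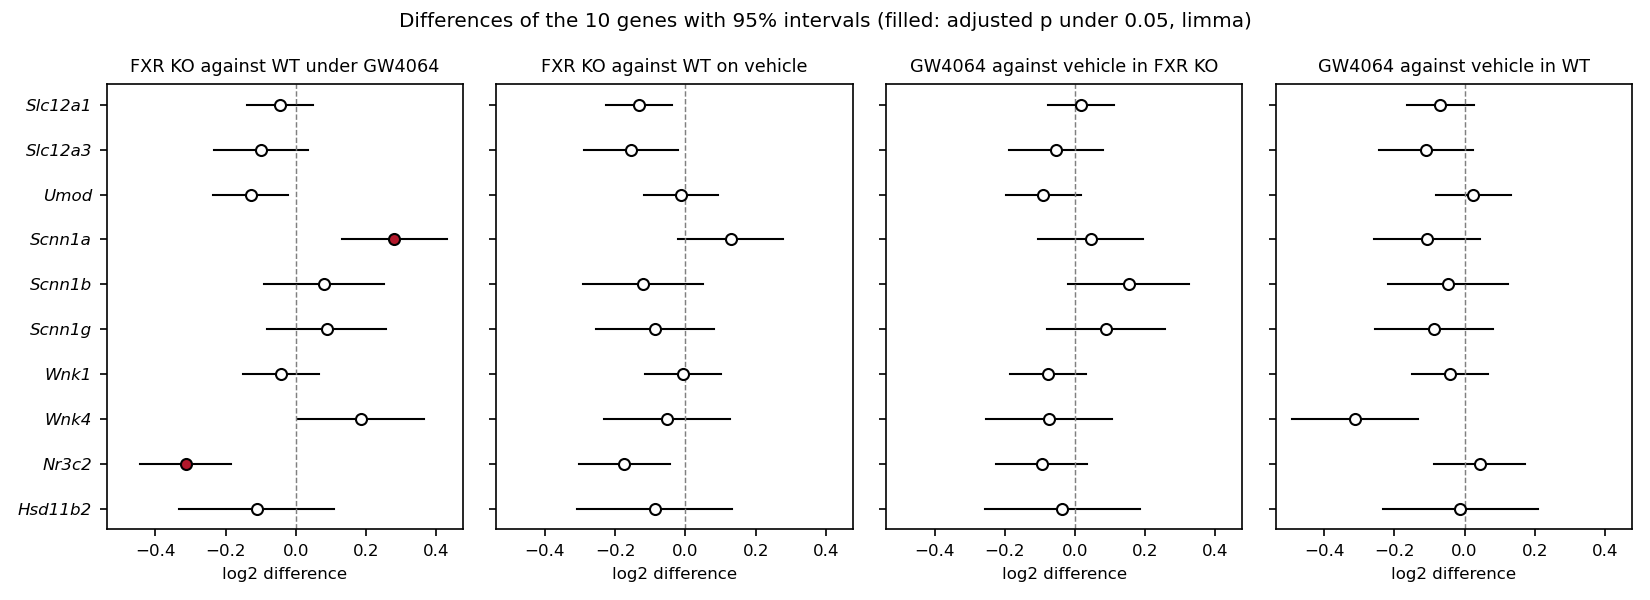
Log2 differences of the 10 genes (points) with 95% intervals (lines) in 4 comparisons, genotype on the left and GW4064 on the right; a positive value means higher in FXR KO or with GW4064. Filled points passed an adjusted p of 0.05, which in these panels are Scnn1a (0.28) and Nr3c2 (-0.31) under GW4064.

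Between genotypes on vehicle, 0 of 10 members were called (limma), where 12.9% of all genes were (3.19% higher, 9.73% lower), and 3 members had an unadjusted p under 0.05. These 3, which were also those of 10 members with no overlap of libraries (34.7% of all genes), were Nr3c2 (log2 difference -0.17 ± 0.06, adjusted p = 0.0745), Slc12a1 (-0.13 ± 0.04, adjusted p = 0.0664) and Slc12a3 (-0.16 ± 0.06, adjusted p = 0.111, limma). Of the members, 9 had a value below 0, as had 70.2% of all tested genes, and the median was -0.09 over both. Median-of-ratios scaling, which sets the middle gene to no difference, left the members' median at -0.003. In these whole-kidney samples, fewer cells of a type and less RNA per cell cannot be told apart. Summed over 10 principal cell markers (all present in the files), FXR KO vehicle libraries had 481 to 510.5 TPM and WT vehicle libraries 594 to 636 TPM, and 0 of the 10 rose and 2 fell. Of other cell types, 0 of 6 podocyte markers rose and 4 fell, 0 of 6 endothelial markers rose and 3 fell, and 0 of 8 proximal tubule markers rose and 1 fell. Of 8 intercalated cell markers 1 rose and 1 fell (median 0.05), and of 5 immune markers 1 rose and 0 fell (median 0.20). Markers of fat, urothelium and blood gave 0 calls, with medians of -0.74, -0.55 and -0.28. The summed blood markers overlapped, at 1125 to 1351 TPM in FXR KO vehicle and 1148 to 2840 TPM in WT vehicle libraries. The part of the marker differences in the values above was not tested.

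Under GW4064, 2 of 10 members were called (limma), where 18.5% of all genes were (7.08% higher, 11.4% lower). The mineralocorticoid receptor gene Nr3c2 fell, to 21.2 ± 0.599 TPM in FXR KO against 26.5 ± 1.18 TPM in WT libraries (SD, n = 3 each), a log2 difference of -0.31 ± 0.06 (SE, adjusted p = 0.00354, limma). The alpha subunit gene Scnn1a rose, to 43.9 ± 1.30 TPM in FXR KO against 36.1 ± 1.95 TPM in WT libraries, a log2 difference of 0.28 ± 0.07 (adjusted p = 0.0150, limma). The call of Scnn1a was lost without WT GW4064 replicate 3, its lowest library (0.25, adjusted p = 0.0580, limma). Umod (-0.13 ± 0.05, adjusted p = 0.0911) and Wnk4 (0.19 ± 0.08, adjusted p = 0.147, limma) did not pass, though their genotypes did not overlap. In all, 4 of 10 members had no overlap, against 36.7% of all genes. The principal cell markers here summed to 428 to 500.1 TPM in FXR KO and 461 to 522 TPM in WT libraries, so the sums overlapped, and 2 of the 10 rose and 1 fell. In the same comparison 0 of 6 podocyte markers rose and 2 fell, 0 of 6 endothelial markers rose and 2 fell, and 0 of 8 proximal tubule markers rose and 3 fell. Of 8 intercalated cell markers 1 rose and 0 fell, and of 5 immune markers 0 rose and 1 fell. Tested markers of fat (5), urothelium (4) and blood (5) gave 0 calls, with list medians of 0.97, 0.55 and 1.53 on the log2 scale. Summed, the blood markers overlapped, at 759 to 2671 TPM in FXR KO GW4064 and 840 to 1295 TPM in WT GW4064 libraries. Single globin genes traded levels between libraries. Hba-a1 and Hba-a2 were at 907.5 and 1.82 TPM in WT GW4064 replicate 2, and at 21.5 and 1245 TPM in replicate 3. The blood medians, here and above, are therefore not read as differences in blood content. The part of the marker shifts in the members' differences was not tested.

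Averaged over both treatments, which sets 6 FXR KO against 6 WT libraries and shares its libraries with the 2 comparisons above, 3 of 10 members were called (limma), where 26.5% of all genes were (7.49% higher, 19.0% lower). Nr3c2 fell (log2 difference -0.24 ± 0.04, a fold of 0.845 with a 95% interval of 0.793 to 0.900, adjusted p = 0.00146). Scnn1a rose (0.20 ± 0.05, a fold of 1.15 with an interval of 1.07 to 1.24, adjusted p = 0.00952). Slc12a3 fell (-0.13 ± 0.04, a fold of 0.915 with an interval of 0.857 to 0.977, adjusted p = 0.0481, limma). The calls of Nr3c2 and Scnn1a in this average held in each of the 9 alternatives and the 12 removals of a library. The call of Slc12a3 did not. It was lost with median-of-ratios scaling (-0.07, adjusted p = 0.275), with no filter (0.0684), with no variance trend (0.0815) and with a score of fat markers in the fit (0.0660, limma). It was also lost without WT vehicle replicates 1, 2 or 3, WT GW4064 replicates 1 or 2, FXR KO vehicle replicates 1 or 2 and FXR KO GW4064 replicates 2 or 3 (adjusted p = 0.0566 to 0.111, limma). Slc12a1 was just beyond the threshold (-0.09 ± 0.03, adjusted p = 0.0520, limma). It passed with quantile scaling (-0.19, adjusted p = 0.00323), a filter of 5 TPM (0.0414), the score of fat markers (0.0320) and without FXR KO vehicle replicate 3 (0.0410), and median-of-ratios scaling left it at -0.03 (adjusted p = 0.535, limma). The remaining members lay between -0.10 (Hsd11b2) and 0.07 (Wnk4). Hsd11b2 passed without FXR KO vehicle replicate 3, its highest library (-0.17, adjusted p = 0.0204, limma). Over all genes, 23.6% had an average difference larger in size than that of Nr3c2.

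**Figure D3:**
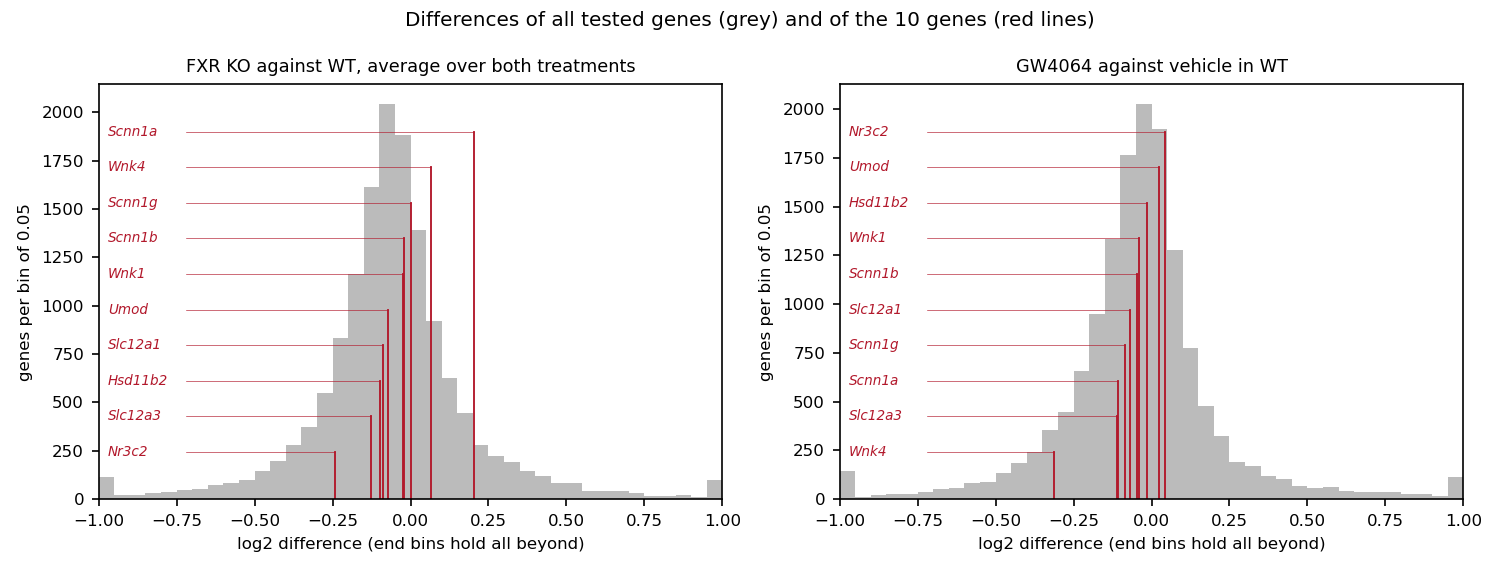
Histograms of the log2 differences of all 14488 tested genes (grey, bins of 0.05, end bins hold all values beyond), with red lines at the 10 genes, for FXR KO against WT on average (left) and GW4064 against vehicle in WT (right). All 10 genes sit in the body of both distributions; Nr3c2 (-0.24) and Scnn1a (0.20) are the outermost on the left, and Wnk4 (-0.31) on the right.

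Genes that act with the members were listed by segment or step, with earlier results of these data known. The median over all genes, for reading the list medians, was -0.09 for FXR KO against WT on vehicle, -0.03 under GW4064 and -0.03 for GW4064 in WT. Of 14 tested genes of thick limb transport, 0 rose and 4 fell in FXR KO on vehicle, with a list median of -0.15, where 9.73% of all genes fell. The count was 2 without FXR KO vehicle replicates 1 or 2 or WT vehicle replicates 1, 2 or 3, with median-of-ratios scaling and with no variance trend, through Cldn19 and Ppp1r1a. Among them was Atp1b1, which encodes a beta subunit of the pump that drives all of this transport and is also made in other tubule segments. It measured 1569, 1694 and 1689 TPM in FXR KO vehicle and 1898, 1949.8 and 1953 TPM in WT vehicle libraries (-0.23 ± 0.04, adjusted p = 0.00827, limma). The groups did not overlap, and the gene fell in each removal of a library. Its call was lost with median-of-ratios scaling (adjusted p = 0.0853, limma). Under GW4064 2 genes of the list rose and 1 fell in FXR KO (7.08% and 11.4% of all genes), a total that dropped to 1 without WT GW4064 replicates 1 or 3 and with the score of fat markers. The total also went up in places, and ran from 1 to 4 over the removals and from 1 to 4 over the alternatives. GW4064 lowered 2 in WT (2.32% of all genes) and 0 in FXR KO, with 0 of the list raised in either (limma). The 2 in WT became 0 without WT GW4064 replicates 1 or 3 or WT vehicle replicates 1 or 3, and with median-of-ratios scaling, no filter or no variance trend. They became 1 without WT GW4064 replicate 2, WT vehicle replicate 2, FXR KO GW4064 replicate 3 or FXR KO vehicle replicates 1 or 2, and with the score of fat markers or a replicate block. The total called for GW4064 in WT ran from 0 to 3 over the removals and from 0 to 3 over the alternatives.

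In the WNK pathway, 0 of 9 tested genes rose and 2 fell in FXR KO on vehicle, with a list median of -0.16, where 9.73% of all genes fell. Stk39, which encodes SPAK, the kinase between the WNK kinases and the cotransporters, measured 34.5, 30.9 and 32.8 TPM in FXR KO vehicle and 38.5, 39.3 and 38.9 TPM in WT vehicle libraries (-0.25 ± 0.05, adjusted p = 0.00660, limma). Under GW4064 it measured 33.7, 33.6 and 33.5 TPM in FXR KO and 36.8, 36.9 and 37.5 TPM in WT libraries, a difference of -0.14 ± 0.05 that just missed the threshold (adjusted p = 0.0523, limma). In both cases every FXR KO library was below every WT library. Under GW4064 0 of the 9 rose and 2 fell, Klhl3 and Cul3 (11.4% of all genes), a count that dropped to 0 or 1 in 9 of 12 removals, to 0 without WT GW4064 replicates 1, 2 or 3 or FXR KO GW4064 replicates 1 or 2, and to 1 without FXR KO GW4064 replicate 3, FXR KO vehicle replicate 3 or WT vehicle replicates 1 or 3. The count was also 0 with either other scaling and with no variance trend, and it ran from 0 to 3 over the alternatives. Klhl3 (-0.17, adjusted p = 0.0494, limma) lost its call in 11 of 12 removals and 6 of 10 alternatives. Cul3 (-0.16, adjusted p = 0.0295, limma) lost it in 5 of 12 removals and 3 of 10 alternatives. A count in a removal need not be of these same genes. Sorl1, a sorting receptor gene linked to NKCC2 regulation, measured 90.0, 83.5 and 93.0 TPM in FXR KO vehicle and 105, 102 and 107 TPM in WT vehicle libraries (-0.24 ± 0.05, adjusted p = 0.0101, limma). GW4064 lowered 1 gene of the list in WT and 0 in FXR KO, with 0 raised in either (limma). It was Sorl1 again (-0.21 ± 0.05, adjusted p = 0.0297), and this call was lost without WT GW4064 replicates 1 or 2 or WT vehicle replicates 1 or 3 (adjusted p = 0.0866 to 0.125), with no variance trend (0.0658) and with the score of fat markers (0.104, limma).

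Among 12 distal convoluted tubule genes, GW4064 lowered 1 in WT and raised 0, and changed 0 in FXR KO (limma). It was Kcnj16, which encodes a partner subunit of the basolateral potassium channel that sets the cotransporter's driving force. Whole-kidney values do not tell in which tubule segment its transcripts were made. Kcnj16 measured 632, 651 and 633 TPM in FXR KO GW4064, 623, 592 and 642 in FXR KO vehicle, 477, 463 and 459 in WT GW4064 and 547, 561 and 556 in WT vehicle libraries. The WT GW4064 libraries were the lowest and the 6 FXR KO libraries the highest. The log2 difference of GW4064 and vehicle in WT was -0.25 ± 0.04 (adjusted p = 0.00219), and that of FXR KO and WT under GW4064 was 0.45 ± 0.04 (adjusted p = 9.6e-06, limma). Under GW4064 2 genes of the list rose (7.08% of all genes) and 0 fell in FXR KO, and 1 rose without FXR KO GW4064 replicate 1 or WT GW4064 replicate 2. The total called ran from 1 to 3 over the removals. On vehicle 1 rose (3.19% of all genes) and 0 fell. That gene was Kcnj16 too (0.16 ± 0.04, adjusted p = 0.0186), a call lost without FXR KO vehicle replicates 1 or 3 or WT vehicle replicates 1 or 3 (adjusted p = 0.0542 to 0.0676) and with a fit of the groups compared alone (0.0599, limma).

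The 10 genes of the aldosterone and glucocorticoid response included the widest differences. Sgk1, an early aldosterone-induced kinase gene whose product keeps ENaC at the cell surface, measured 374, 303 and 225 TPM in FXR KO GW4064, 441, 431 and 515 in FXR KO vehicle, 275, 216 and 226 in WT GW4064 and 173, 169.6 and 116 in WT vehicle libraries. On vehicle every FXR KO library was above every WT library, by a log2 difference of 1.61 ± 0.19 (adjusted p = 4.4e-04, limma), and the value in each alternative and removal passed as well. Nr3c1, the glucocorticoid receptor gene, measured 60.1, 60.4 and 57.4 TPM in FXR KO GW4064 and 83.4, 76.3 and 82.5 TPM in WT GW4064 libraries (-0.44 ± 0.07, adjusted p = 0.00125, limma), and it lay at 2.74 to 3.28 times Nr3c2 within each of the 12 libraries. Usp2 encodes a deubiquitinase that is induced by aldosterone in mouse kidney cells. Under GW4064, Usp2 and Ndrg2 were also lower in FXR KO than in WT libraries (-0.96 ± 0.14 and -0.43 ± 0.06, adjusted p = 5.9e-04 and 4.95e-04, limma). Of the 10 genes, 0 rose and 4 fell in FXR KO under GW4064, where 11.4% of all genes fell. These were Nr3c1, Usp2, Ndrg2 and Cnksr3. Cnksr3 (-0.21 ± 0.07, adjusted p = 0.0423, limma), lost its call in 8 of 12 removals and 5 of 10 alternatives. On vehicle 1 rose, Sgk1, and 1 fell, Nedd4l (3.19% and 9.73% of all genes). Nedd4l (-0.25 ± 0.07, adjusted p = 0.0303) lost its call without FXR KO vehicle replicates 1 or 3 or WT vehicle replicates 2 or 3, with either other scaling and with a fit of the groups compared alone (adjusted p = 0.0778 to 0.195, limma). GW4064 raised 1 in WT, Ndrg2 (0.34 ± 0.06, adjusted p = 0.00794, limma), lowered 0, and changed 0 in FXR KO. The count in WT was 2 or 3 without FXR KO GW4064 replicates 3 or 1.

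Of 8 genes of ENaC processing, 0 rose and 2 fell in FXR KO on vehicle, and 0 rose and 1 fell under GW4064 (9.73% and 11.4% of all genes fell). The second on vehicle, St14 (-0.21 ± 0.06, adjusted p = 0.0417, limma), lost its call in 8 of 12 removals, those of the 6 vehicle libraries, FXR KO GW4064 replicate 1 and WT GW4064 replicate 3, and in 5 of 10 alternatives. Prss8 encodes prostasin, a membrane-anchored protease that activates ENaC. It measured 250.2, 273 and 260.4 TPM in FXR KO GW4064, 307, 330.3 and 287 in FXR KO vehicle, 379.7, 361 and 387 in WT GW4064 and 358, 376 and 365 in WT vehicle libraries. All 6 FXR KO libraries were below all 6 WT libraries. The log2 difference was -0.53 ± 0.05 under GW4064 (adjusted p = 5.0e-05, limma) and -0.25 ± 0.05 on vehicle (adjusted p = 0.0128, limma), and median-of-ratios scaling ended the call on vehicle (adjusted p = 0.118). GW4064 changed 0 of the 8 in either genotype (limma).

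**Figure D4:**
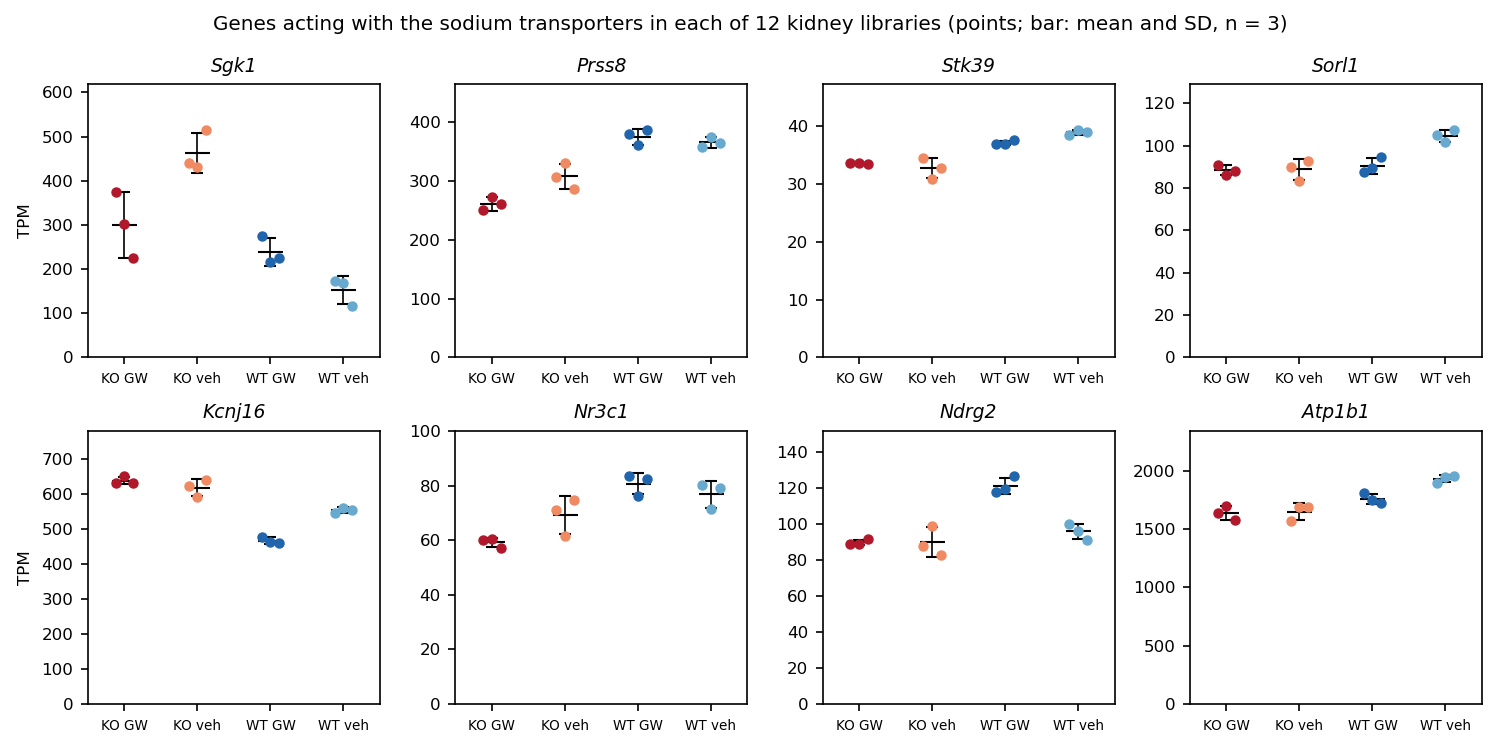
TPM of 8 genes that act with the sodium transporters in each library, with groups from left to right FXR KO GW4064, FXR KO vehicle, WT GW4064 and WT vehicle. Points are libraries and the bar is the mean with its SD (n = 3); Sgk1 is highest in FXR KO vehicle libraries (431 to 515 TPM) and lowest in WT vehicle libraries (116 to 173 TPM), and Prss8 is lower in all FXR KO than in all WT libraries.

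The genes whose levels followed a member most closely over the 12 libraries were found by Pearson's r of log2 values among 14478 other tested genes, as a description with no p. For Nr3c2 it was Mtss1 (0.97), for Slc12a1 Arid1b (0.95), for Slc12a3 Usp54 (0.94), for Umod Slain2 (0.94), for Scnn1a Camk2n2 (0.92) and for Wnk4 Mapk4 (0.92). For Wnk1 it was Supt4b (0.89), for Scnn1b Slc52a3 (0.89), for Hsd11b2 Gm2115 (0.87) and for Scnn1g Hspb7 (0.85). None of these is another member, since members were left out. The points share genotype and treatment, so such values describe likeness over these libraries only.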

How the data were processed

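Libraries of kidney total RNA were made with a stranded kit, per the labels' protocols, and HISAT2, StringTie and Cufflinks on mm10 are listed in the submitters' processing notes. Tool versions and roles were not stated. TPM had been scaled by the authors to a total of 1000000 per library. The deposited FPKM and coverage signal were used for depth only. Entries of 1 identifier were summed, and symbols came from RefSeq genes of GRCm38.p6 (24462 of 24532 matched).

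Values were transformed as log2(TPM + 0.5), so differences of low genes are understated. Tests covered the 14488 genes that reached 1 TPM in 3 or more libraries. All 12 libraries entered a limma 3.58.1 fit (R 4.3.3) of group means with a variance trend, and each of 6 comparisons had its own Benjamini-Hochberg adjustment over all genes. Errors beside TPM are SD and beside log2 differences SE. Simulated data with known differences were used to check the code. Sequences are from RefSeq. Python 3.11.15, pandas 2.3.3 and matplotlib 3.10.9 served for tables and plots.

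The members and gene lists were chosen with earlier results of these data known. Named genes are the 10 members, Nr1h4, called genes of the pathway lists and the gene most like each member. Alternatives were other pseudocounts, filters, scalings, variance models and samples, a block by replicate number, a fat marker score, and leaving out each library. A gene that enters the counts of the pathway lists is not reported here by name.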

Additional observations from a re-analysis of the deposited data

Results flagged for a closer look

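Among the members, no difference between genotypes in the GW4064 response passed the test, and groups of 3 are too small for a test of single outlying libraries. Among the partner genes, 2 responses differed between genotypes by the interaction test. For Sgk1 the log2 difference of GW4064 and vehicle in FXR KO minus that in WT was -1.30 ± 0.26 (SE, adjusted p = 0.0229, limma). Its GW4064 difference was -0.65 in FXR KO (adjusted p = 0.258) and 0.66 in WT (adjusted p = 0.0744, limma), and neither passed by itself. The Sgk1 interaction was lost without WT GW4064 replicate 1 (adjusted p = 0.0659), FXR KO vehicle replicate 1 (0.0542) or FXR KO vehicle replicate 3 (0.0516), and with a score of fat markers in the fit (0.0815, limma). For Kcnj16 the interaction was 0.30 ± 0.05 (adjusted p = 0.0122, limma), with a GW4064 difference of 0.05 in FXR KO and -0.25 in WT. It held in all 12 removals of a library and was lost with the fat marker score (adjusted p = 0.0504, limma).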

How the results depend on the processing

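Among the members' values, 551 kept direction and side of the threshold under other settings, while 16 turned sign, 9 newly passed and 4 no longer passed. With a library left out the numbers were 675, 31, 4 and 10. Called members numbered 1 in place of 0 for GW4064 in WT with a filter of 5 TPM, with quantile scaling and with only the groups compared (Wnk4 each time), 1 in place of 0 for FXR KO against WT on vehicle with quantile scaling (Slc12a1), and 4 in place of 2 under GW4064 with quantile scaling (Umod and Wnk4 added). For the average they numbered 4 in place of 3 with a filter of 5 TPM and with quantile scaling (Slc12a1 added), and 2 with no filter, median-of-ratios scaling or no variance trend (Slc12a3 lost). With a library left out the counts were 0 to 1, 0 to 0, 0 to 0, 1 to 2 and 0 to 0 for GW4064 in WT and in FXR KO, FXR KO against WT on vehicle and under GW4064, and the interaction, and 2 to 5 for the average (5 without FXR KO vehicle replicate 3).

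Signs that turned were all of values that did not pass. With median-of-ratios scaling these were Hsd11b2 for GW4064 in WT (0.019), Slc12a1 for GW4064 in FXR KO (-0.0018), Umod (0.073), Wnk1 (0.079) and Wnk4 (0.033) for FXR KO against WT on vehicle, and Scnn1b (0.039) and Wnk1 (0.036) for the average. With quantile scaling they were Umod (0.0094), Wnk1 (0.013) and Wnk4 (0.0048) on vehicle, Wnk1 under GW4064 (0.0084), and Scnn1b (0.035) and Wnk1 (0.011) for the average. With the fat marker score they were Umod (-0.0099) and Hsd11b2 (0.060) for GW4064 in WT and Wnk1 for the interaction (0.029). The cause was not tested.

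Leaving out a library moved across 0 the values of GW4064 in WT of Scnn1b (-0.088 to 0.014), Scnn1g (-0.17 to 0.0043) and Hsd11b2 (-0.054 to 0.036), and those of GW4064 in FXR KO of Slc12a1 (-0.027 to 0.041), Slc12a3 (-0.11 to 0.0025), Scnn1a (-0.0061 to 0.10), Wnk4 (-0.17 to 0.0012) and Hsd11b2 (-0.12 to 0.10). It did so for FXR KO against WT on vehicle of Umod (-0.049 to 0.0061), Scnn1g (-0.17 to 0.0034) and Wnk1 (-0.036 to 0.019), under GW4064 of Wnk1 (-0.076 to 0.0041), for the interaction of Slc12a3 (-0.0021 to 0.11), Wnk1 (-0.069 to 0.011) and Hsd11b2 (-0.11 to 0.12), and for the average of Scnn1b (-0.051 to 0.015) and Scnn1g (-0.042 to 0.045).

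Genes called over the whole table were 696 for GW4064 in WT (337 to 768 with a library left out, 428 with the fat marker score), 2 in FXR KO (0 to 51), 1872 on vehicle (913 to 1899), 2677 under GW4064 (1732 to 2759), 462 for the interaction (220 to 535, 207 with the fat marker score) and 3838 for the average (3037 to 3567). Median-of-ratios scaling moved the split into higher and lower to 453 and 236 (360 and 336 as reported) for GW4064 in WT, 833 and 539 (462 and 1410) on vehicle, 1250 and 1309 (1026 and 1651) under GW4064, 141 and 346 (213 and 249) for the interaction and 1623 and 1528 (1085 and 2753) for the average. A replicate block gave 0, 0, 0, 2, 0 and 3 called members in the 6 comparisons, as without it. Libraries of the same number did not deviate together (r of -0.07 to 0.08 over 18 pairs), so the numbers were not taken as pairs. Differences of about 0.1 or less on the log2 scale were within the intervals of most members.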
